A study of Homo sapiens with 9 samples.

Results

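The 10 genes described here are ATF4 and 9 genes of the response it drives: DDIT3, TRIB3, CHAC1, ASNS, DDIT4, CEBPB, VLDLR, SLC7A5 and SLC3A2. They were taken by symbol from a raw count table of 60199 symbols, of which 29997 had at least 1 count and 15717 passed the filter on low counts. All 10 genes were found and all 10 passed that filter. The table holds poly-A RNA-seq of MCF10A, a non-transformed human mammary epithelial cell line, in 3 groups of 3 libraries. MCF10A-CT cells (CT) received no cytokine and carry the label not transformed. MC26 cells came from unsorted MCF10A cells kept long term in BMP2, a bone morphogenetic protein, together with the cytokine IL6. M1B26 cells came from the BMPR1B-positive fraction of MCF10A, isolated by sorting for this BMP receptor, treated with BMP2 and IL6, and expanded from 3 soft-agar clones in the continued presence of both. Both derived lines carry the label transformed, and BMP2 and IL6 were in their medium but not in that of CT, so the presence of the cytokines and the history of transformation cannot be told apart. The medium described for MCF10A cells contains serum, insulin, hydrocortisone, cholera toxin and EGF. The 3 libraries of a group are described as independent cultures, but MC26 and M1B26 are each 1 derived line.

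The integrated stress response begins with kinases that phosphorylate the translation factor eIF2α when cells lack amino acids or haem, carry viral RNA or accumulate unfolded proteins in the endoplasmic reticulum. General protein synthesis then slows while the ATF4 mRNA is translated more, and the ATF4 protein, a basic leucine zipper factor, activates genes for amino acid synthesis and uptake, for feedback on the response and, when stress persists, for cell death. Much of the control of ATF4 itself lies in translation, which RNA counts do not measure.

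Library totals ranged from 21425118 to 80076597 counts in CT, from 38585395 to 42869494 in MC26 and from 43642934 to 55048760 in M1B26, with the shallowest library being CT replicate 2. CDKN2A and CDKN2B, the genes deleted in MCF10A cells, were at 0 in every library. Levels are given as CPM, the counts of a gene per 1000000 counts of its library. The 8 mammary epithelial markers examined summed to 7227–8875 CPM for CT libraries, to 8092–9979 for MC26 and to 7092–7460 for M1B26. Most of that sum was KRT5, and single epithelial markers moved in different directions. In CT, MC26 and M1B26, mean KRT14 was 54.07, 1097 and 548.2 CPM and mean TP63 31.91, 78.07 and 78.96. Mean EPCAM was 70.40, 14.80 and 72.13 CPM in that order, and mean CDH1 76.37, 40.75 and 44.09. The 7 markers of fibroblasts, leukocytes and endothelium summed to 20.01–24.63, 27.81–38.74 and 37.67–50.59 CPM, with 1 of the 7 at 0 in each group (COL1A2, PTPRC and CDH5 in turn, none above 0.0286 CPM in any library). This sum does not describe the single markers, which moved in different directions: mean CD68 was 8.97, 22.5 and 26.7 CPM and mean COL1A1 7.73, 9.74 and 15.4, whereas PECAM1, an endothelial gene, was 5.04, 0.268 and 0.898. The part of these markers in the results below was not tested. All genes together shifted little between groups on the scale used, with median log2 fold changes of 0.0010 for MC26 against CT, 0.0019 for M1B26 against CT and -0.0014 for M1B26 against MC26.

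ATF4 and its dimer partners of the C/EBP family bind a composite element, here searched as TGATGNAA on both strands, where its reverse reads TTNCATCA. In RefSeq promoters of GRCh38.p14, taken from 250 bases before to 50 bases after each annotated start, the letters occurred in 1270 of 35116 promoters (3.62%) and in 338 of the 15923 promoters of genes tested here (2.12%). All 10 genes matched the promoter table with 18 promoters, of which 3 held the element (16.7%), 1 each for CHAC1, ASNS and SLC3A2. Of 57 promoters of other known ATF4 targets, 16 held it (28.1%). The stretches below show the element of CHAC1 and ASNS, whose levels separated the lines in different ways, beside those of ATF3 and SLC1A5, from the list of other targets. The element is in capitals, and each stretch is written 5′ to 3′ along the strand of its gene. The start named is 1 annotated start, which need not be the outermost one. For CHAC1, ASNS and SLC1A5 the stretch lies within the gene bounds used here, which for SLC1A5 are chr19:46774883-46788594.
CHAC1, chr15:40953236-40953295, plus strand, element from 209 bases before the start: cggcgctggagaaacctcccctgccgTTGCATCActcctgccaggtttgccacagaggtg
ASNS, chr7:97872443-97872502, minus strand, element from 68 bases before the start: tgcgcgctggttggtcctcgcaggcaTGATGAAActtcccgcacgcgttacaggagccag
ATF3, chr1:212565190-212565249, plus strand, element from 191 bases before the start: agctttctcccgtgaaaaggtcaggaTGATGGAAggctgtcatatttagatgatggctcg
SLC1A5, chr19:46784878-46784937, minus strand, element from 97 bases before the start: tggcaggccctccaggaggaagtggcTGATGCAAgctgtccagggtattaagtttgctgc
The element of SLC3A2 began 37 bases after one of its annotated starts, at chr11:62881725-62881748, as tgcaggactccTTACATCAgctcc on the plus strand. A match of these letters is a description of the sequence only, and its absence from the other windows says nothing about binding elsewhere.

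The first question was how the 10 transcripts stood in each transformed line against CT. In MC26, 5 of the 10 changed: VLDLR rose, while ASNS, DDIT4, SLC7A5 and SLC3A2 fell. In M1B26, 6 of the 10 changed and all 6 rose: ATF4, TRIB3, CHAC1, DDIT4, CEBPB and VLDLR. A gene was called changed where its Benjamini-Hochberg adjusted p over all genes tested, from edgeR's quasi-likelihood test, was under 0.05. These counts stand beside large backgrounds. Of all genes tested, 38.7% were called in MC26 against CT (18.8% higher and 19.9% lower) and 48.9% in M1B26 against CT (25.2% higher and 23.7% lower), so that 5 of 10 and 6 of 10 are not far from the share of any genes. Of all calls, 48.46% were higher in MC26 and 51.5% in M1B26, and with scaling by total counts alone these shares were 35.75% and 39.55%. The median log2 fold change of the 10 genes was -0.04 in MC26 and 0.34 in M1B26. Both comparisons share the CT libraries. Because these are bulk RNA libraries, fewer cells expressing a gene and less RNA per cell cannot be told apart.

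M1B26 against MC26 sets the derived lines against each other, although the CT libraries entered the filter, the scaling and the shared estimate of spread. This comparison placed all 10 log2 fold changes above 0, with a median of 0.42. Of the 10 genes, 7 were called higher and 0 lower: ATF4, TRIB3, CHAC1, ASNS, DDIT4, VLDLR and SLC3A2. The background for this comparison was 39.5% called, 21.2% higher and 18.4% lower. DDIT3, CEBPB and SLC7A5 had positive fold changes that did not pass the test. The number of genes called fell to 4 without MC26 replicate 2, without MC26 replicate 3 or without M1B26 replicate 3, and was 8 without CT replicate 2. The 3 libraries of the groups did not overlap in CPM for 6 of the 10 genes in MC26 against CT, for 5 in M1B26 against CT and for 7 in M1B26 against MC26. Among all genes tested, 50.3%, 59.0% and 53.5% did not overlap in these comparisons.

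**Figure D1:**
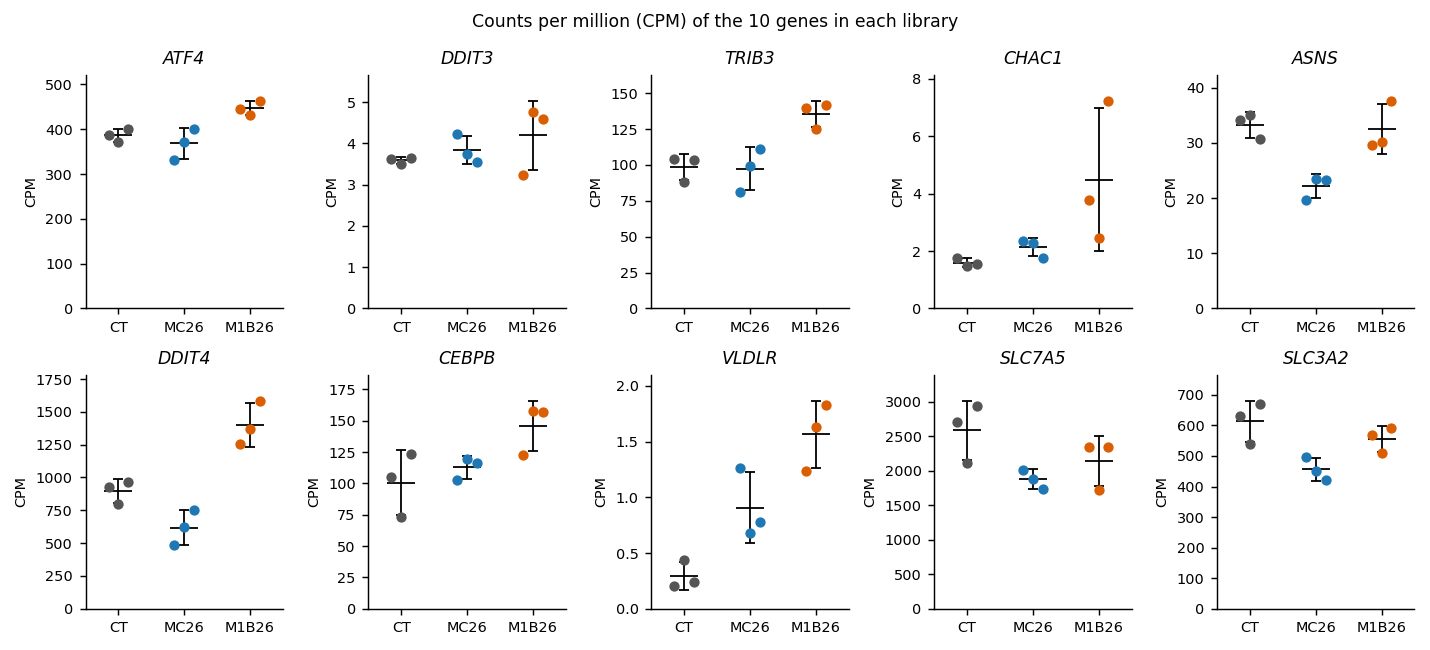
CPM of each gene (y axis, linear, from 0) in each library, by group on the x axis, with the replicates of a group drawn from left to right in number order; points are libraries, and the horizontal bar and error bar are the mean and SD of 3 libraries. The M1B26 points of ATF4, TRIB3 and DDIT4 all lie above those of both other groups, while the MC26 points of ASNS and DDIT4 lie below both.

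ATF4 (ENSG00000128272, chr22:39519695-39522683, plus strand, GRCh38) is the factor at the centre of the response. Its levels were 387.6, 370.4 and 400.0 CPM in CT, 332.1, 371.6 and 400.8 in MC26 and 444.4, 432.8 and 464.0 in M1B26. The 3 M1B26 libraries stood above all the others, and MC26 overlapped CT. The difference of M1B26 from MC26 was 0.28 on the log2 scale (SE 0.0755, adjusted p = 0.0132), and that from CT was 0.21 (95% interval 0.0457 to 0.378, adjusted p = 0.0373), a rise of 15.8%. MC26 and CT differed by -0.07 (interval -0.234 to 0.0978, adjusted p = 0.508). The call against CT was the least firm of those for ATF4: it was lost with adjusted p up to 0.105 when any 1 of CT replicates 1 or 2, MC26 replicate 2 or the 3 M1B26 replicates was left out, and with scaling by total counts alone the fold change was 0.12 (adjusted p = 0.23).

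DDIT3 encodes CHOP, the zipper factor associated with cell death under lasting stress, and it was sparsely counted here. It lay at 3.615, 3.494 and 3.648 CPM in CT, at 4.227, 3.739 and 3.553 in MC26 and at 3.224, 4.757 and 4.599 in M1B26. The groups overlapped in every comparison, and none passed the test: the intervals ran from -0.253 to 0.443 for MC26 against CT, from -0.121 to 0.567 for M1B26 against CT and from -0.217 to 0.473 between the derived lines. Without M1B26 replicate 1, its lowest library, the fold change of M1B26 against CT was 0.39 (adjusted p = 0.0412). Other protein-coding models cover part of the DDIT3 exons at chr12:57516588-57521737. On the opposite strand, 1 gene whose counts were not analysed here covers 27.16% of their bases, and MBD6 covers 4.44%, with 29136 counts against 1689 of DDIT3 over all libraries. A model on the same strand covers 8.03%. Whether the counting used strand is not given in the sources used here, so the DDIT3 counts are uncertain.

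CEBPB (chr20:50190830-50192668) encodes C/EBPβ, a zipper factor that can pair with ATF4. It was read at 105.3, 72.90 and 123.7 CPM in CT, at 102.5, 119.4 and 116.5 in MC26 and at 122.5, 157.9 and 156.9 in M1B26. M1B26 replicate 1 fell just under the highest CT library, so these groups overlapped, although the fitted difference passed the test at 0.53 (SE 0.164, adjusted p = 0.0202). That call was lost without M1B26 replicate 2 (adjusted p = 0.0736) or replicate 3 (0.0632), and without CT replicate 2, the lowest library, the fold change was 0.34. MC26 did not differ from CT beyond its error, at 0.16 (interval -0.202 to 0.521). Between the derived lines the difference was 0.37 (adjusted p = 0.0954).

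Among the feedback genes and effectors, TRIB3 (chr20:362835-397559) encodes a pseudokinase that ATF4 and CHOP induce and that dampens their activity. Its levels were 104.3, 88.06 and 103.1 CPM in CT, 81.24, 99.45 and 111.3 in MC26 and 139.9, 124.7 and 141.8 in M1B26. As for ATF4, the M1B26 libraries lay above all the others and MC26 spread across CT. The rise in M1B26 was 0.46 against CT (SE 0.112, adjusted p = 0.00591) and 0.48 against MC26 (SE 0.112, adjusted p = 0.00651), while MC26 and CT differed by -0.02 (interval -0.264 to 0.227).

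DDIT4 (chr10:72273919-72276036), also called REDD1, encodes an inhibitor of the growth kinase complex mTORC1, and it was the 1 gene of the 10 called in opposite directions in the derived lines. It was read at 925.9, 795.1 and 966.0 CPM in CT, at 484.6, 619.4 and 749.9 in MC26 and at 1254, 1369 and 1584 in M1B26. No 2 groups overlapped: every MC26 library was under every CT library, and every M1B26 library was above both. DDIT4 fell by 0.54 on the log2 scale in MC26 (SE 0.144, adjusted p = 0.0132) and rose by 0.65 in M1B26 (SE 0.144, adjusted p = 0.00359). The difference between the lines was 1.18 (interval 0.862 to 1.503, adjusted p = 0.000146). All 3 calls held at 0.05 in every alternative fit run.

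CHAC1 (chr15:40952962-40956512) encodes an enzyme that breaks down glutathione, and it is among the genes that rise most sharply when ATF4 is active. Its counts were low, with 34 to 127 per library in CT, 75 to 94 in MC26 and 103 to 392 in M1B26. In CPM it stood at 1.758, 1.485 and 1.550 in CT, at 2.337, 2.275 and 1.765 in MC26 and at 3.787, 2.438 and 7.240 in M1B26. All the M1B26 libraries were above all the others, and replicate 3 was well above replicates 1 and 2. The fold change of M1B26 was 1.49 against CT (SE 0.327, adjusted p = 0.00328) and 1.09 against MC26 (SE 0.323, adjusted p = 0.0207). Without M1B26 replicate 3 these values were 0.96 and 0.55, the latter with an adjusted p of 0.0824. The call against MC26 was also lost without MC26 replicate 2 (adjusted p = 0.0525) or replicate 3 (0.0566). MC26 stood 0.40 above CT without passing the test (adjusted p = 0.382), although its 3 libraries did not overlap those of CT.

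Of the genes for amino acid supply, ASNS (chr7:97851677-97872542, minus strand) encodes asparagine synthetase, which transfers nitrogen from glutamine to aspartate. Its levels were 34.07, 35.12 and 30.68 CPM in CT, 19.69, 23.43 and 23.34 in MC26 and 29.60, 30.11 and 37.69 in M1B26. MC26 lay below both other groups, which overlapped each other. ASNS fell by 0.58 in MC26 (SE 0.110, adjusted p = 0.0018) and was 0.55 higher in M1B26 than in MC26 (SE 0.109, adjusted p = 0.00259). M1B26 and CT differed by -0.03, with an interval of -0.270 to 0.205. A long non-coding gene model on the same strand covers 49.33% of the ASNS exonic bases, so part of its counts could have been assigned elsewhere.

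SLC7A5 and SLC3A2 encode the light and heavy chain of one exchanger, LAT1 with CD98, which imports large neutral amino acids such as leucine. SLC7A5 (chr16:87830023-87869507, minus strand) was read at 2709, 2115 and 2942 CPM in CT, at 2019, 1887 and 1733 in MC26 and at 2341, 1722 and 2352 in M1B26. SLC3A2 (chr11:62856004-62888880) was read at 630.7, 539.6 and 670.3 CPM in CT, at 497.4, 450.9 and 421.4 in MC26 and at 568.2, 508.5 and 592.2 in M1B26. For both genes every MC26 library was under every CT library, and M1B26 overlapped CT. SLC7A5 fell by 0.46 in MC26 (SE 0.138, adjusted p = 0.0217), a call lost without CT replicate 1, CT replicate 3, MC26 replicate 2 or MC26 replicate 3 (adjusted p of 0.0573 to 0.0862). SLC3A2 fell by 0.43 (SE 0.0959, adjusted p = 0.00516), and this call held in every alternative fit. In M1B26 the fold changes against CT were -0.28 for SLC7A5 (interval -0.579 to 0.0278) and -0.14 for SLC3A2 (interval -0.352 to 0.0689), neither past the test. With scaling by total counts alone they were -0.37 (adjusted p = 0.035) and -0.23 (adjusted p = 0.0463), and SLC7A5 also passed without CT replicate 2 (-0.41, adjusted p = 0.0258).

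The proportion of the 2 chains was also read within each library. The log2 ratio of SLC7A5 to SLC3A2 counts within a library was 2.07 ± 0.0866 (SD, n = 3) in CT, 2.04 ± 0.0223 in MC26 and 1.93 ± 0.150 in M1B26, and the groups overlapped in every comparison. M1B26 was above MC26 by 0.29 for SLC3A2 (SE 0.0958, adjusted p = 0.0353) and by 0.19 for SLC7A5 (interval -0.118 to 0.489). The SLC3A2 call was lost in 5 of the 9 fits that left out 1 library (CT replicate 1, MC26 replicates 2 and 3, M1B26 replicates 1 and 3), with adjusted p up to 0.115.

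VLDLR (chr9:2621182-2660056) encodes a receptor for lipoproteins and reelin, and it had the lowest counts of the 10 genes and their largest fold changes against CT. It had 14, 10 and 20 counts in CT, 51, 26 and 33 in MC26 and 55, 69 and 99 in M1B26. In CPM these are 0.2001, 0.4368 and 0.2440 in CT, 1.268, 0.6799 and 0.7765 in MC26 and 1.240, 1.633 and 1.828 in M1B26. Every library of both derived lines was above every CT library, while M1B26 replicate 1 was just under MC26 replicate 1. VLDLR rose by 1.78 in MC26 (SE 0.345, adjusted p = 0.00219) and by 2.57 in M1B26 (SE 0.330, adjusted p = 0.000103), a fold change of 5.94. Both calls held in every alternative fit in which VLDLR was tested; the filter at a mean of 50 counts left it out. The difference between the derived lines, 0.79 (SE 0.289, adjusted p = 0.0495), lost its call without any 1 of CT replicates 1 or 3, MC26 replicates 2 or 3 or M1B26 replicates 2 or 3 (adjusted p up to 0.172).

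LRP1 and SORL1, 2 larger receptors related to VLDLR, fell in both derived lines. LRP1 fell by 1.79 (MC26) and 1.23 (M1B26), with adjusted p of 9.25e-06 and 6.64e-05. SORL1 fell by 1.95 and 1.14 (adjusted p of 4.9e-06 and 0.0001).

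Per kilobase of exon, the 10 transcripts spanned a wide range of levels. In CT the order of mean CPM per kilobase was SLC7A5 (543.4), DDIT4 (422.9), ATF4 (147.7), SLC3A2 (95.99), CEBPB (54.72), TRIB3 (29.92), ASNS (6.800), DDIT3 (2.744), CHAC1 (0.7789) and VLDLR (0.01779). MC26 had the same order, from 394.6 for SLC7A5 to 0.05502 for VLDLR. In M1B26 the first places changed over, with DDIT4 at 662.2 and SLC7A5 at 448.9. The classical death-associated and glutathione-degrading members, DDIT3 and CHAC1, thus stood among the 3 lowest genes in every group. Over the groups, the mean level was highest in M1B26 for 7 of the 10 genes and in CT for the other 3 (ASNS, SLC7A5 and SLC3A2). The 10 genes together took 0.4297–0.5364% of all counts in CT, 0.3454–0.3546% in MC26 and 0.4216–0.5254% in M1B26, most of it SLC7A5 and DDIT4.

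Relative to ATF4 counts in the same library, the targets did not move as a block. The log2 ratio of DDIT4 to ATF4 averaged 1.21 in CT, 0.73 in MC26 and 1.64 in M1B26, with no overlap between any groups. The ratio of TRIB3 to ATF4 was -1.97 for CT, -1.93 for MC26 and -1.72 for M1B26, where all libraries lay above the others. By contrast, the ratio of ASNS to ATF4 was -3.54 in CT, lower in MC26 at -4.06 and intermediate in M1B26 at -3.79. For SLC3A2 the ratio was 0.66 in CT and 0.31 in both derived lines, and for SLC7A5 it was 2.73, 2.35 and 2.24. These ratios were not tested.

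**Figure D2:**
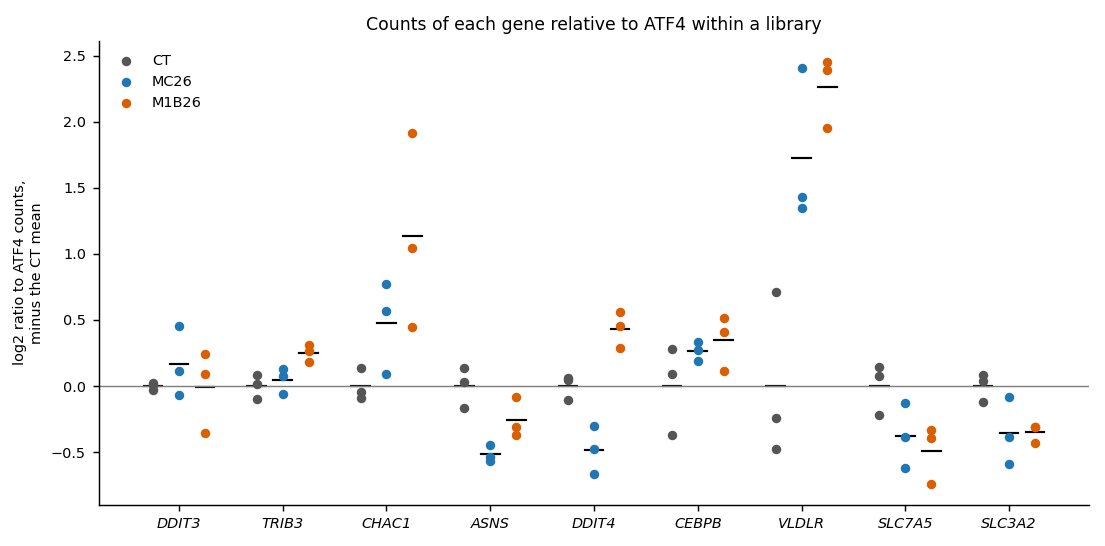
Log2 ratio of each gene's counts to ATF4 counts in the same library, minus the mean of the 3 CT libraries (y axis), for 9 genes (x axis); points are libraries and bars are group means. DDIT4 lies below CT in MC26 and above it in M1B26, TRIB3 lies above CT in M1B26, and ASNS, SLC7A5 and SLC3A2 have means below CT in both lines.

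The replicates of MC26 spread in opposite directions for different genes. MC26 replicate 1 was the lowest of the MC26 libraries for 5 of the 10 genes (ATF4, TRIB3, ASNS, DDIT4 and CEBPB) and the highest for the other 5. CT replicate 2, the shallowest library, was the lowest CT library for 8 of the 10 genes, and M1B26 replicate 3 was the highest M1B26 library for 8 of the 10.

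Upstream of ATF4, of the 4 kinases that phosphorylate eIF2α, 2 fell in MC26 and 3 in M1B26, and 0 rose in either. Among all genes tested, 19.9% were called lower in MC26 against CT and 23.7% in M1B26 against CT. EIF2AK1, the haem-regulated kinase, averaged 193.4 ± 2.57 CPM in CT (SD, n = 3), 165.3 ± 14.3 in MC26 and 170.7 ± 4.36 in M1B26, and fell by 0.23 in MC26 (SE 0.0702, adjusted p = 0.0253), while the value in M1B26 was -0.18 (adjusted p = 0.0526). EIF2AK2, the kinase sensing double-stranded RNA, fell by 0.25 in MC26 (SE 0.0889, adjusted p = 0.0474) and by 0.28 in M1B26 (adjusted p = 0.0241). EIF2AK3, the endoplasmic reticulum kinase PERK, fell by 0.27 in M1B26 (SE 0.100, adjusted p = 0.0433) and was at -0.18 in MC26 (adjusted p = 0.179). The M1B26 and CT libraries overlapped for EIF2AK3. EIF2AK4, the kinase sensing uncharged tRNA, fell in M1B26 by 0.18 against CT (SE 0.0589, adjusted p = 0.0288) and by 0.17 against MC26 (adjusted p = 0.0367), and was at 0.00 in MC26 against CT. In the mitochondrial relay to these kinases, OMA1 fell in both lines, by 0.42 (MC26) and 0.34 (M1B26), and DELE1 fell by 0.28 in MC26 (adjusted p of 0.0221, 0.0436 and 0.00521).

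Of the phosphatase genes whose products reverse the phosphorylation, PPP1R15A and PPP1R15B differed between the lines. PPP1CA rose in both, by 0.23 in MC26 (adjusted p = 0.0407) and by 0.37 in M1B26 (adjusted p = 0.0025). Between the lines PPP1CA did not pass the test (adjusted p = 0.158), and PPP1CB and PPP1CC were not called in any comparison. PPP1R15A, the stress-induced subunit also called GADD34 and itself an ATF4 target, was read at 12.99, 14.28 and 14.41 CPM in CT, at 21.63, 21.16 and 18.96 in MC26 and at 17.11, 12.66 and 12.98 in M1B26. Only MC26 stood apart, higher than CT by 0.57 (SE 0.117, adjusted p = 0.0032), and M1B26 was lower than MC26 by 0.53 (adjusted p = 0.00475). PPP1R15B, the constitutive subunit, fell in M1B26, by 0.42 relative to CT (SE 0.0709, adjusted p = 0.00059) and by 0.26 against MC26 (adjusted p = 0.0133). Of the 13 genes of eIF2, eIF2B and the phosphatase, 3 rose and 0 fell in MC26, and 1 rose and 1 fell in M1B26. The share of all genes called against CT was 38.7% in MC26 and 48.9% in M1B26.

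Among 9 zipper partners and related factors, 3 rose and 1 fell in MC26 and 2 rose and 2 fell in M1B26. These counts are near the shares of all genes called, 38.7% and 48.9%. ATF5, which ATF4 induces, fell in M1B26 by 0.41 against CT (SE 0.106, adjusted p = 0.00803) and by 0.61 against MC26 (adjusted p = 0.00129). FOS was 0.99 higher and JUN 0.99 lower in M1B26 than in MC26 (adjusted p of 0.00173 and 0.00206). CEBPG, a partner of ATF4 at amino acid genes, rose by 0.23 in MC26 (SE 0.0792, adjusted p = 0.0391).

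A wider list of 55 other known ATF4 targets, of which 53 were tested, was read beside the 10 genes. In MC26, 10 rose and 22 fell, with a median log2 fold change of -0.09. In M1B26, 8 rose and 21 fell against CT, with a median of -0.05, while 6 of the 10 genes described here rose and 0 fell. In M1B26 against MC26, 10 rose and 12 fell, with a median of 0.01. Among all genes tested, 18.8% were called higher and 19.9% lower in MC26 against CT, and 25.2% and 23.7% in M1B26 against CT. For M1B26 against MC26 these shares were 21.2% and 18.4%. The wider list and the 10 genes were both chosen with earlier results of these data known.

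**Figure D3:**
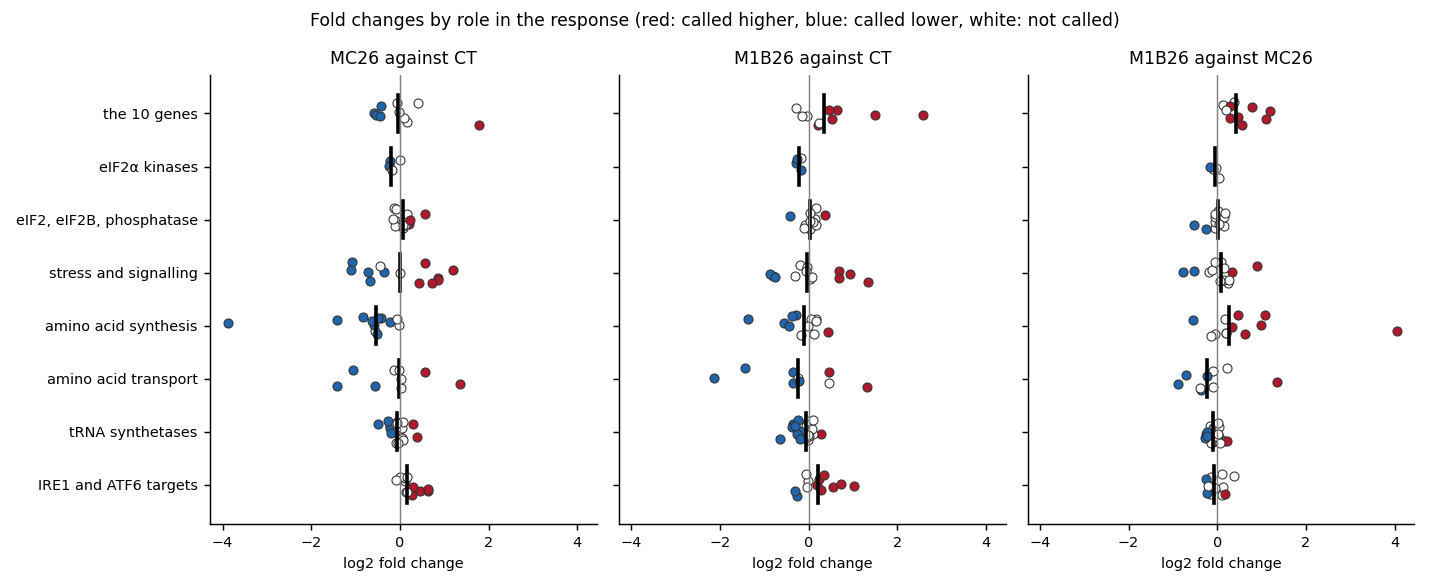
Log2 fold change (x axis) of the genes tested in 8 lists (y axis) for the 3 comparisons; each point is a gene, red or blue where called higher or lower and white where not called, and the black bar is the list median. In MC26 against CT the amino acid synthesis genes lie at or left of 0, with a median of -0.55, and in M1B26 against MC26 their median is 0.27.

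Of the 12 other amino acid synthesis genes, 9 fell in MC26 and 0 rose, with all 12 fold changes below 0 and a median of -0.55. Among all genes tested, 19.9% were called lower in this comparison. PHGDH, the first enzyme of serine synthesis, was read at 110.2, 104.9 and 120.2 CPM in CT, at 34.39, 42.73 and 47.74 in MC26 and at 75.09, 80.78 and 90.33 in M1B26. No groups overlapped: PHGDH fell by 1.43 in MC26 (SE 0.116, adjusted p = 6.49e-06) and by 0.45 in M1B26 (SE 0.113, adjusted p = 0.00725), and was 0.98 higher in M1B26 than in MC26 (adjusted p = 0.000108). PSPH, the last enzyme of that path, averaged 39.5 ± 1.32 CPM for CT, 28.2 ± 2.69 for MC26 and 39.0 ± 3.03 for M1B26 (SD, n = 3) and was 0.47 higher in M1B26 than in MC26 (SE 0.0852, adjusted p = 0.00158).

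In M1B26 the same list was split. Against CT, 1 of the 12 rose and 5 fell (median -0.10), and against MC26, 6 rose and 1 fell (median 0.27). The shares of all genes called in these comparisons were 48.9% and 39.5%. ALDH1L2, a mitochondrial folate enzyme, fell by 0.83 in MC26 (SE 0.111, adjusted p = 0.000217) and by 1.38 in M1B26 (SE 0.113, adjusted p = 4.64e-06), and was 0.55 lower in M1B26 than in MC26 (adjusted p = 0.00304). GOT1, the cytosolic aspartate aminotransferase, fell in both lines, by 0.42 in MC26 (SE 0.058, adjusted p = 0.000246) and by 0.57 in M1B26 (SE 0.0581, adjusted p = 2.18e-05). GPT2, a mitochondrial alanine aminotransferase, also fell in both, by 0.58 in MC26 (SE 0.103, adjusted p = 0.0013) and by 0.38 in M1B26 (adjusted p = 0.0104). PYCR1, an enzyme of proline synthesis, fell by 0.64 in MC26 (SE 0.142, adjusted p = 0.00504) and rose by 0.43 in M1B26 (SE 0.139, adjusted p = 0.0238). PYCR1 lies on chromosome 17, whose 843 tested genes had a median log2 fold change of 0.48 in M1B26 against CT, whereas the 12987 genes placed on other chromosomes had -0.01. The part of this shift in the value of PYCR1 was not tested. None of the 10 genes lies on chromosome 17.

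Of 9 amino acid transporters among the ATF4 targets, 2 rose and 3 fell in MC26, and 2 rose and 5 fell in M1B26. The shares of all genes called against CT were 38.7% and 48.9%. SLC7A11, the cystine transporter that also pairs with SLC3A2, was read at 57.66, 73.69 and 60.28 CPM in CT, at 194.4, 174.9 and 116.1 in MC26 and at 94.95, 70.39 and 97.57 in M1B26. It rose by 1.35 in MC26 (SE 0.184, adjusted p = 0.000247), where the heavy chain fell, and was 0.88 lower in M1B26 than in MC26 (adjusted p = 0.00322). SLC1A5, a glutamine transporter, rose by 0.56 and 0.46 in MC26 and M1B26 (adjusted p of 0.000683 and 0.00153). SLC6A9, a glycine transporter, fell by 1.05 and 1.43 (adjusted p of 0.0047 and 0.000531). SLC7A6, another light chain of SLC3A2, fell by 0.39 in M1B26 (SE 0.0787, adjusted p = 0.00184).

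Of 19 tested cytosolic tRNA synthetases, 2 rose and 5 fell in MC26, and 1 rose and 8 fell in M1B26. These counts are near the shares of all genes called, 38.7% and 48.9%. EPRS1, the synthetase for glutamate and proline, fell by 0.49 in MC26 (SE 0.101, adjusted p = 0.00328) and by 0.65 in M1B26 (SE 0.101, adjusted p = 0.000359). LARS1, for leucine, and GARS1, for glycine, fell by 0.37 and 0.34 in M1B26 (adjusted p of 0.00115 and 0.00206).

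Targets in stress signalling were split in both lines, with 6 rising and 5 falling of 13 in MC26 and 4 rising and 3 falling in M1B26. All genes together had 38.7% called in MC26 and 48.9% in M1B26. PMAIP1, which encodes the cell death protein NOXA, rose by 1.19 in MC26 (SE 0.132, adjusted p = 5.44e-05) and by 1.34 in M1B26 (SE 0.131, adjusted p = 1.62e-05). GDF15, a secreted stress hormone, fell by 1.09 in MC26 (SE 0.218, adjusted p = 0.0026), was at -0.20 in M1B26 (adjusted p = 0.466) and was 0.90 higher in M1B26 than in MC26 (adjusted p = 0.00807). KLHL24 fell by 1.102 in MC26 and, in M1B26, by 0.87 (adjusted p of 0.000226 and 0.000645). TRIB2, a relative of TRIB3, fell by 1.116 in MC26 and, in M1B26, by 0.82 (adjusted p of 0.00693 and 0.0227).

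The other branches of the unfolded protein response are read by targets of IRE1 and ATF6. Of 12 such genes, 5 rose and 0 fell in MC26, and 7 rose and 2 fell in M1B26. Among all genes tested, 18.8% were called higher in MC26 and 25.2% in M1B26. EDEM1, which helps dispose of misfolded glycoproteins, rose by 0.62 in MC26 (SE 0.0656, adjusted p = 4.03e-05) and by 0.72 in M1B26 (SE 0.0655, adjusted p = 9.04e-06). SDF2L1 rose by 0.63 and 1.01, and the co-chaperone gene DNAJB9 by 0.44 and 0.56 (adjusted p of 0.0106, 0.000449, 0.0021 and 0.00031). Between the derived lines 1 of the 12 rose and 2 fell in M1B26 against MC26, where 39.5% of all genes were called. XBP1, a factor of the IRE1 branch, was 0.18 higher (SE 0.0645, adjusted p = 0.0431), while the chaperone genes HSP90B1 and HYOU1 were lower, by 0.25 and 0.22 (adjusted p of 0.0437 and 0.0301). HSP90B1 was also among those that fell in M1B26 against CT, by 0.26 (SE 0.0876, adjusted p = 0.0318).

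Across the 9 libraries, the genes whose log2 CPM was most like that of ATF4, among 10630 genes compared, were NCBP2AS2 (Pearson r = 0.967), C3 (0.965), AC025423.2 (0.962), RNASEK (0.957) and AC067852.2 (0.957), and 121 genes reached at least 0.9. Within the 10 genes, ATF4 was most like TRIB3 (0.972) and DDIT4 (0.951), and SLC7A5 was most like SLC3A2 (0.924). The genes most like the mean of the 10 were RETREG3 (0.971), DVL2 (0.958), STARD10 (0.954), CTC1 (0.952) and INPP5K (0.952), of which all but STARD10, on chromosome 11, lie on chromosome 17. The libraries fall into 3 lines, so these values mostly describe which genes share an order of the lines, with M1B26 highest.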

How the data were processed

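The authors aligned paired-end poly-A reads to GRCh38 with STAR 2.7.3a and quantified genes with Salmon 1.1.0 and gencode v33, and deposited 1 table of whole-number gene counts, not normalized. The counting program behind that table and its use of strand are not given in the sources used here. The labels and the methods give different cytokine concentrations, so none is printed. Groups follow the sample titles. All 9 libraries entered one edgeR 4.0.16 quasi-likelihood fit (R 4.3.3) with group as the only term, TMM scaling (factors 0.9685–1.069) and the filterByExpr filter at a minimum count of 10. Calls used a Benjamini-Hochberg adjusted p under 0.05 over the 15717 genes tested, and SE and 95% intervals come from that fit. CPM, counts per 1000000, uses TMM-scaled totals. Within-group spread, as the biological coefficient of variation, was 10.37%. P-values measure the spread between cultures of 1 line each. Gene positions and exon lengths come from GENCODE v44 on GRCh38. DESeq2 1.42.0 served as an alternative. The 10 genes and the companion lists were chosen with earlier results of these data known. Named companions are the eIF2α kinases, PPP1R15A and PPP1R15B whatever their values, and up to 4 called genes per list and comparison with the largest fold changes at a mean of at least 5 CPM. Genes most like a pattern are the 5 with the highest correlation among genes of at least 5 CPM. Of 20 listed synthetases, 1 is not analysed here. The list of receptors related to VLDLR is reported here only in part.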

Additional observations from a re-analysis of the deposited data

Results flagged for a closer look

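The derived lines differed from each other, by the edgeR test of M1B26 against MC26, in the effect on 7 of the 10 genes, each higher in M1B26. Of all genes tested, 39.5% were called in this comparison, 21.2% higher and 18.4% lower. The log2 differences were 0.28 for ATF4, 0.48 for TRIB3, 1.09 for CHAC1, 0.55 for ASNS, 1.18 for DDIT4, 0.79 for VLDLR and 0.29 for SLC3A2. Those of DDIT4, TRIB3 and ASNS passed 0.05 in all alternatives run, as did that of ATF4, and those of CHAC1, VLDLR and SLC3A2 did not.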

How the results depend on the processing

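Over 30 gene and comparison pairs and 507 alternative values, 452 kept direction and side of the threshold, 39 lost the call (the threshold of 0.01 included), 8 gained it and 8 changed sign, all 8 of them uncalled and near 0. For MC26 against CT, where leaving out 1 library gave ATF4 -0.13 to 0.0046, TRIB3 -0.13 to 0.10 and CEBPB -0.018 to 0.34, these were ATF4 at 0.0046 without MC26 replicate 1, TRIB3 at 0.029 without CT replicate 1, 0.022 without CT replicate 3 and 0.10 without MC26 replicate 1, and CEBPB at -0.018 without CT replicate 2. For M1B26 against CT, with ASNS from -0.15 to 0.036, they were ASNS at 0.00076 without CT replicate 2, 0.036 without M1B26 replicate 1 and 0.025 without M1B26 replicate 2. At an adjusted p under 0.01, 3 of the 10 genes were called in MC26 against CT and 3 in M1B26 against MC26, and 3698 and 3685 of all genes. Leaving out 1 library gave 4–5 (MC26 to CT), 4–6 (M1B26 to CT) and 4–8 (M1B26 to MC26) of the 10 genes, and, in the same order, 4524–6127, 6282–7941 and 4503–7166 of all genes. CEBPB passed in M1B26 against MC26 with no filter (adjusted p = 0.00294), with 6 libraries (0.0246) and without CT replicate 2 (0.0232), and VLDLR lost its call there with RLE factors (0.0522), total counts alone (0.0531) and DESeq2 (0.0799). With scaling by total counts alone the median log2 fold change of all genes was -0.0752 (MC26 to CT), -0.0914 (M1B26 to CT) and -0.0187 (M1B26 to MC26). The share of calls that were higher in MC26 against CT was then 35.75% in place of 48.46%, and in M1B26 against CT 39.55% in place of 51.5%. Labels give the groups the same replicate numbers without saying that these mark a shared day. Deviations of same-numbered libraries correlated at -0.162 to 0.3, and those of differently numbered libraries at -0.272 to 0.268. With 3 libraries per group these values cannot decide whether libraries were paired. The main fit did not take them as paired. The replicate block gave 5879, 7513 and 6009 genes called and 5, 6 and 6 of the 10 genes, and the call it changed among the 10 was VLDLR in M1B26 against MC26 (adjusted p = 0.0834). The filter at a mean of 50 counts left VLDLR untested. The low counts of VLDLR, CHAC1 and DDIT3 limit the precision of their values. The causes of these changes were not tested.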
